A study of Arabidopsis thaliana with 3 samples.

Results

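The 7 laccase genes LAC2, LAC3, LAC4, LAC7, LAC12, LAC13 and LAC17 and the plantacyanin gene ARPN were examined for peaks of the transcription factor SPL10 on Arabidopsis thaliana DNA. They were taken by locus, 8 of 27444 protein-coding nuclear genes, as laccase and plantacyanin targets of the copper microRNAs. A peak was assigned to a gene when its summit, the base with the highest signal, lay in the gene or within 3000 bp of either end. By this rule the 8 genes had 15 peaks in replicate 1 and 15 in replicate 2. Of these, 13 were shared, meaning that the peaks of both replicates overlapped by at least 50% of each.

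The series holds 3 samples of leaf material from the wild-type ecotype Col-0, all fixed with 1% formaldehyde for 10 minutes. SPL10 was precipitated in 2 of them, and peaks were called separately for each, while 1 was an input without precipitation. The assay was DAP-seq, DNA affinity purification sequencing, which recovers the genomic fragments that a transcription factor holds. The labels do not say how the SPL10 protein was made or tagged. Leaf fixation is given beside this assay, so whether SPL10 held the DNA in the leaf or after extraction cannot be told. The files hold no expression values, so the leaf label could not be checked against marker genes.

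Laccases are multicopper oxidases of the cell wall that couple monolignols into lignin, and plantacyanin is a small blue copper protein of the extracellular space. When copper is scarce, plants make the microRNAs miR397, miR398, miR408 and miR857, which cut the transcripts of copper proteins that can be spared. In Arabidopsis miR397 targets LAC2, LAC4 and LAC17, miR408 targets LAC3, LAC12, LAC13 and plantacyanin, and miR857 targets LAC7. The microRNA genes are switched on by SPL7, a copper-responsive member of the SBP-domain family to which SPL10 also belongs, and SBP domains recognise DNA with a GTAC core.

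The lists held 21574 peaks in replicate 1 and 21439 in replicate 2, with 16697 shared on the nuclear chromosomes. Fold enrichment is the peak caller's signal at the summit over its local background, as the authors deposited it. Counting intervals are exact 95% Poisson intervals of the tags (sequenced fragments) recovered at the summit. They cover counting error only and were not computed above 198 tags, a limit set at the width in bp of the narrowest peak. No summit exceeded 396 tags in either list, so high counts may be limited, which was not tested. Over all shared peaks the replicates differed by less than counting noise, and they are treated as a single sample with a value for each and no standard deviation. The labels do not state whether separate plants were used.

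SPL10 peaks at these genes ranged from among the strongest to among the weakest listed. LAC4, ARPN and LAC17 each had a shared peak of more than 10-fold. LAC2 had one of nearly 6-fold and LAC13 one of about 4-fold, whereas the shared peaks of LAC3 and LAC12 had means of 2.06 to 2.61-fold. LAC7 had no shared peak. A shared peak as such was thus found at 7 of 8 genes, against 69.7% of all protein-coding genes by the same rule, which is little above the background. Among coding genes as long as these 8 (1696 to 3466 bp) the share was 70.7%. More than 1 shared peak was found at 4 of 8 genes (32.9% of coding genes).

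**Figure D1:**
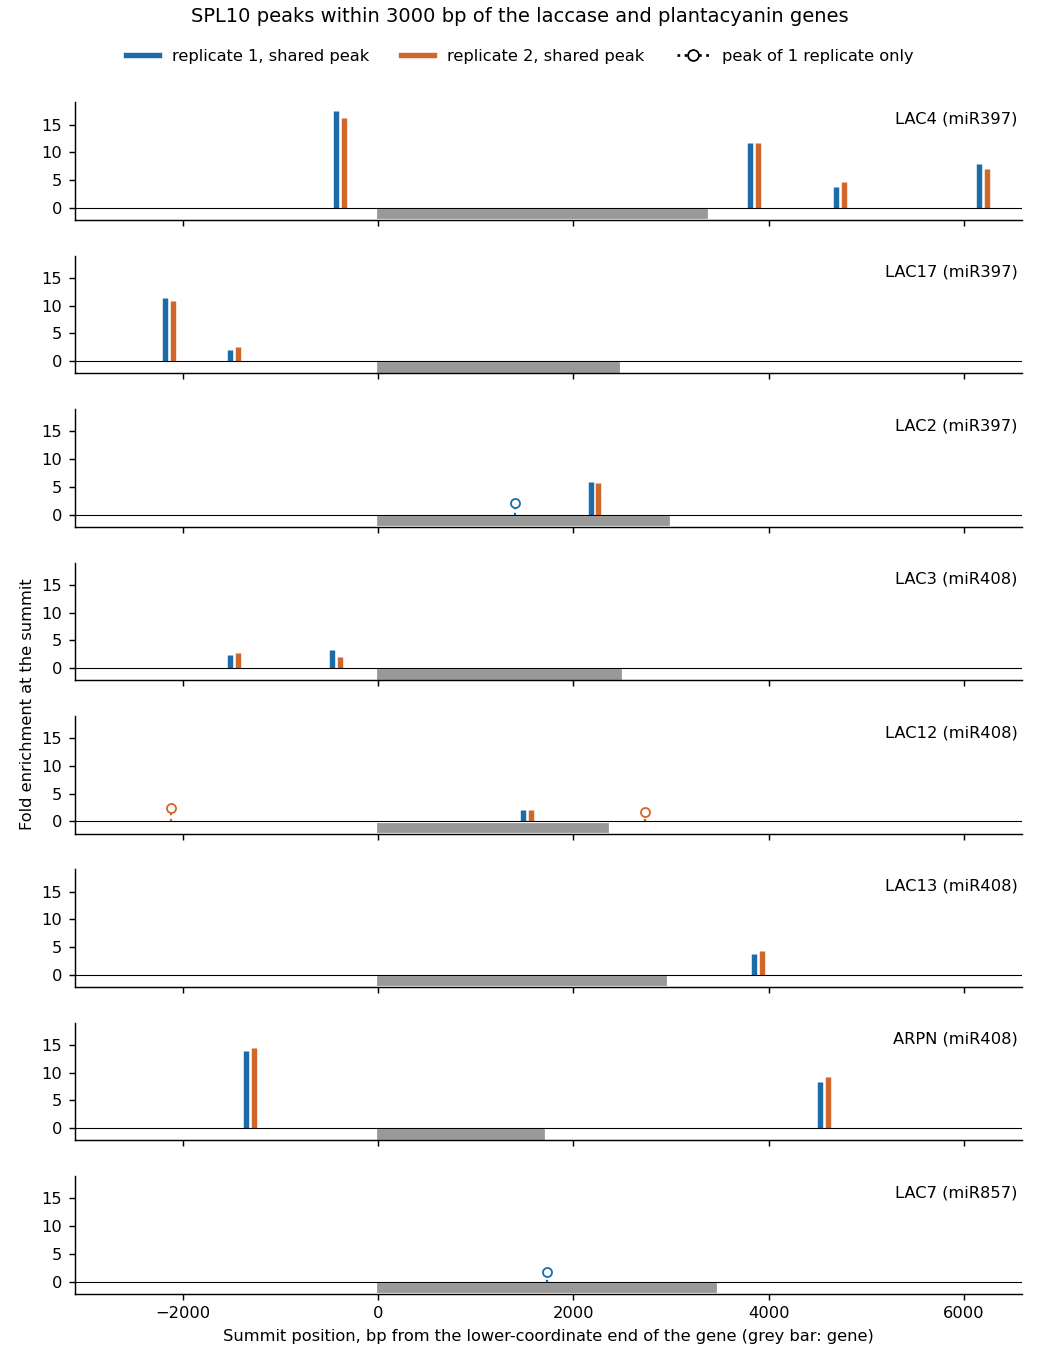
Position of each summit (x axis, bp from the lower-coordinate end of the gene, with the gene as a grey bar) and its fold enrichment (y axis) for the 8 genes, 1 panel each. Thick bars are shared peaks in replicates 1 and 2, drawn side by side, and open circles are peaks of 1 replicate. LAC4 and ARPN carry strong peaks on both sides, LAC17 on 1 side, and LAC7 only 1 weak peak of replicate 1.

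LAC4 (AT2G38080, listed as IRX12), a main laccase of lignin formation in the stem xylem, had 4 shared peaks, more than any other of the 8 genes. Of all protein-coding genes, 2.75% had at least 4 shared peaks within 3000 bp. The strongest covered bases 15933645 to 15934068 of chromosome 2 (TAIR10, peak of replicate 1, as for the other positions given), outside genes, with the summit 384 bp off the lower-coordinate end of LAC4 in replicate 1 and 394 bp in replicate 2. Its fold enrichment was 17.5 (246 tags) in replicate 1 and 16.2 (214 tags) in replicate 2. By the mean of both it ranked 312 of 16697 shared peaks, and 2.05% of coding genes had a peak at least as strong within 3000 bp.

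On the other side of LAC4, 3 further shared peaks followed each other. The first, 480 and 483 bp past the higher-coordinate end at 15937889 to 15938316, had 11.8-fold (10.0 to 13.7, 165 tags) in replicate 1 and 11.6-fold (9.87 to 13.6, 153 tags) in replicate 2. The second, at 1354 and 1374 bp, was weaker, with 3.70-fold (2.78 to 4.83) and 4.69-fold (3.61 to 6.0). The outermost, at 2840 and 2815 bp, had 7.87-fold (6.49 to 9.47) and 6.95-fold (5.62 to 8.52). All 4 summits lay outside annotated genes, and the nearest other coding gene was 3038 to 6485.5 bp away, so LAC4 was the nearest coding gene to each of them. The gene therefore stood between the strongest pair, and no peak was listed inside it. Which end is the promoter was not used here, because the gene table gives no strand.

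LAC17 (AT5G60020), which acts with LAC4 in stem lignification, had a pair of shared peaks, both off the lower-coordinate end. The strong one, on chromosome 5 at 24165654 to 24166058, had 11.3-fold (9.66 to 13.2, 159 tags) in replicate 1 and 10.9-fold (9.27 to 12.8, 154 tags) in replicate 2. Its summit stood 2148 and 2136 bp from LAC17 but 802 bp from the neighbouring coding gene AT5G60010, so LAC17 was not its nearest gene. The other, at 1473 and 1470 bp, was close to the floor of the lists, with 2.0-fold (1.35 to 2.87) and 2.58-fold (1.80 to 3.58). It lay about as far from AT5G60010 as from LAC17.

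LAC2 (AT2G29130), a laccase that acts in root lignification, had its shared peak inside the gene. It lay on chromosome 2 at 12526897 to 12527223, with the summit 757 bp from the higher-coordinate end at the same base in both replicates. Replicate 1 gave 5.96-fold (4.77 to 7.37, 83 tags) and replicate 2 gave 5.75-fold (4.54 to 7.18, 75 tags). In replicate 1 alone another peak inside the gene was listed, at 2.18-fold (1.58 to 2.94). All 3 targets of miR397 thus had a shared peak above 5-fold, which 32.2% of coding genes had. Whether the targets of 1 microRNA differed from those of another was not tested.

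Of the miR408 targets, plantacyanin stood apart from the laccases in strength. ARPN (AT2G02850), a gene expressed in the pistil and linked to pollen tube guidance, had its strongest peak on chromosome 2 at 824751 to 825234, outside genes. The summit lay 1304 and 1310 bp off the lower-coordinate end, and the nearest other coding gene was 2134 bp away. It reached 13.9-fold (12.0 to 16.0, 195 tags) in replicate 1 and 14.5-fold (12.5 to 16.7, 191 tags) in replicate 2, and 3.99% of coding genes had a peak at least as strong. A second shared peak past the higher-coordinate end, at 2862 and 2877 bp, had 8.37-fold (7.04 to 9.88) and 9.31-fold (7.86 to 11.0). That summit lay inside SUT2, a sucrose transporter gene, so it cannot be assigned to ARPN by position alone.

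The 3 laccases of the miR408 group had weaker peaks. LAC13 (AT5G07130), a laccase of the Casparian strip in the root endodermis, had 1 shared peak of 3.70-fold (2.82 to 4.76, 57 tags) and 4.23-fold (3.28 to 5.38, 64 tags), on chromosome 5 at 2213431 to 2213775. It stood 928 and 965 bp past the higher-coordinate end, inside the next coding gene, AT5G07140. LAC13 thus had no shared peak outside other genes.

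LAC3 (AT2G30210), also a laccase of the Casparian strip, had a pair of low peaks off its lower-coordinate end. The nearer, at 433 and 423 bp, had 3.18-fold (2.42 to 4.12, 55 tags) in replicate 1 and 2.04-fold (1.44 to 2.81, 35 tags) in replicate 2. This was the largest difference between replicates among the 13 shared peaks, 1.56 times, and the intervals overlapped. The farther, at 1563 and 1390 bp, had 2.28-fold (1.58 to 3.20) and 2.73-fold (1.93 to 3.76). Its summits lay 173 bp apart in the replicates, and the coding gene EMB3147 was nearer, at 193.5 bp from their mean.

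LAC12 (AT5G05390) had a single shared peak, inside the gene, of 2.0-fold (1.35 to 2.87, 27 tags) and 2.13-fold (1.43 to 3.05, 27 tags), the weakest of the 13. Its summits stood 102 bp apart. Replicate 2 alone listed a pair of further peaks, of 2.47-fold (1.79 to 3.34) inside PRA1.B3 and of 1.75-fold (1.13 to 2.60) inside AT5G05400. LAC12 stood near the bottom of the range: its shared peak ranked 15741 of 16697, and 67.4% of all coding genes, of which 69.7% had any shared peak, had one at least as strong. With LAC2, it was 1 of 2 among the 8 genes with a shared summit inside the gene, against 26.6% of coding genes.

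LAC7 (AT3G09220), the miR857 target, linked to secondary growth of the vascular tissue, was the 1 gene of the 8 without a shared peak. Replicate 1 listed a peak inside the gene of 1.65-fold (1.06 to 2.45, 22 tags), with a −log10 q of 0.486, so a q above 0.05. Replicate 2 listed none within 3000 bp. The missing peak does not show that SPL10 leaves LAC7 unbound.

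**Figure D2:**
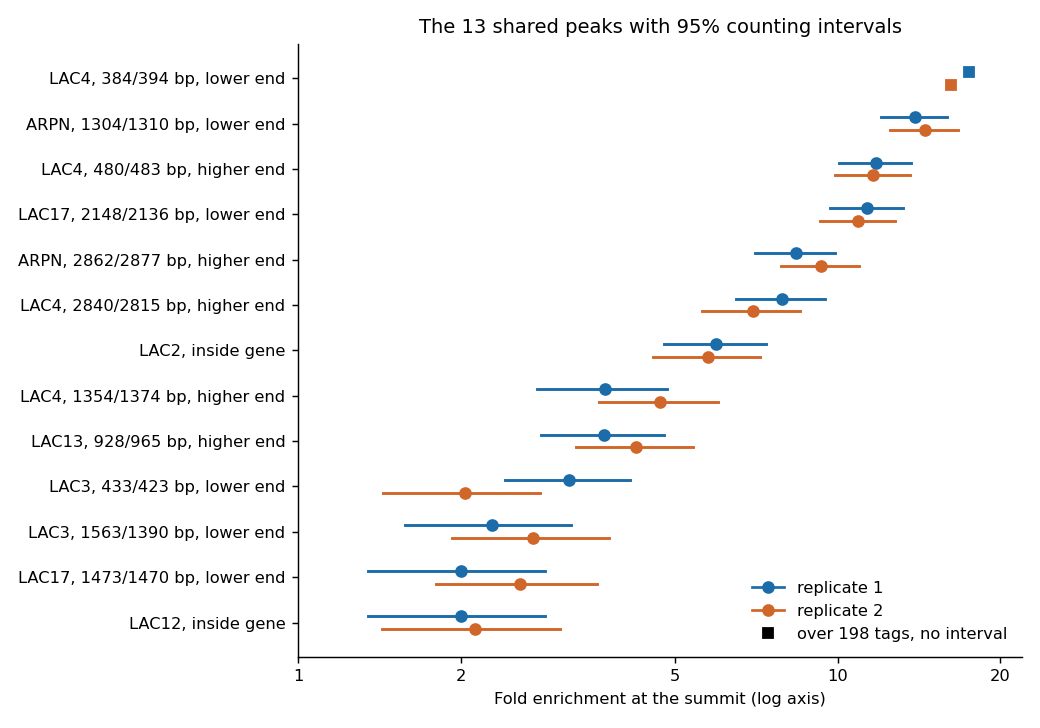
Fold enrichment (x axis, log scale) of the 13 shared peaks at the 8 genes, ordered by strength, with the distance of the summit from the gene in replicates 1 and 2. Points are replicates and lines are 95% counting intervals, with squares where the tags exceed 198 and no interval was computed. The folds run from 17.5 and 16.2 at LAC4 down to 2.0 and 2.13 at LAC12, and the replicates lie farthest apart at the nearer LAC3 peak, with 3.18 and 2.04.

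Ordered by the mean fold of the strongest shared peak, the genes ran LAC4 (16.9), ARPN (14.2), LAC17 (11.1), LAC2 (5.85), LAC13 (3.96), LAC3 (2.61) and LAC12 (2.06). The median of coding genes with such a peak was 4.67. Between neighbours in this order, the intervals were apart both within and across replicates only for LAC17 and LAC2 (lowest bound 9.27 against highest bound 7.37). LAC4 and ARPN had replicate values that did not overlap, but the ARPN interval in replicate 2 reached above the lower LAC4 value. ARPN and LAC17 likewise had separate replicate values and overlapping intervals, as the highest LAC17 bound was 13.2 and the lowest ARPN bound 12.0. From LAC2 down, neighbours overlapped when the intervals of both replicates were compared, but not always within a replicate. In replicate 1 the LAC2 interval (4.77 to 7.37) lay just above that of LAC13 (2.82 to 4.76), whereas in replicate 2 they overlapped. In replicate 2 the LAC13 interval (3.28 to 5.38) lay above that of the nearer LAC3 peak (1.44 to 2.81), whereas in replicate 1 they overlapped. The farther LAC3 peak was the higher of the pair in replicate 2 (1.93 to 3.76), and its interval overlapped that of LAC13 there. LAC3 and LAC12 overlapped in each replicate.

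A mean fold of at least 10, a limit chosen after the values were seen, was reached at 3 of 8 genes against 10.3% of coding genes. With at least 5-fold the count was 4 of 8 against 32.2%. The 8 genes had been chosen with earlier results of these lists known, so these shares describe them and are not a test. Stricter lists filter on the q or fold of the same peaks and are not separate support. They kept a peak at 5 of 8 genes with −log10 q of at least 10 in both replicates (44.3% of coding genes). Among the strongest 5000 peaks of each list they kept 4 of 8 (26.1%), the same genes as with at least 5-fold. The closeness of the strong peaks differed, however. Within 1000 bp, 5 of 8 genes had a shared peak against 45.9% of coding genes, and of the 3 genes with the strongest peaks only LAC4 was among them.

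**Figure D3:**
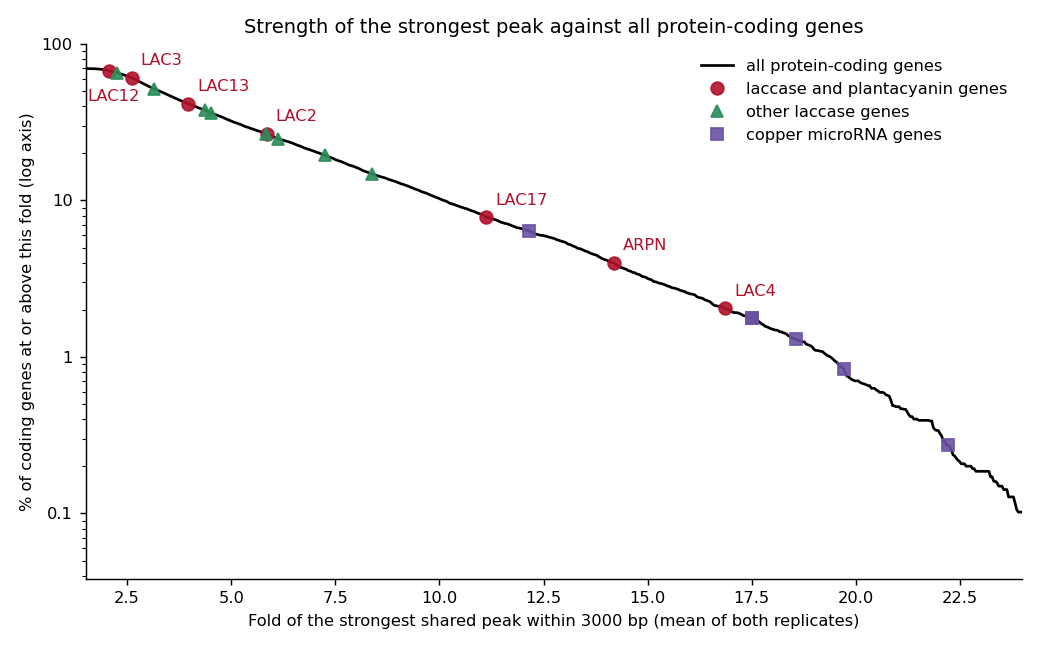
Share of all 27444 protein-coding genes (y axis, percent, log scale) whose strongest shared peak within 3000 bp reaches the mean fold on the x axis. Symbols place the laccase and plantacyanin genes, the other laccase genes and the copper microRNA genes on that curve. LAC4, ARPN and LAC17 lie at 2.05%, 3.99% and 7.83%, beyond the other laccases at this window, and 5 of the 6 microRNA genes lie beyond LAC4.

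The remaining laccases, which are not counted among the targets of copper microRNAs here, gave a comparison within the family. Of these 10 genes, 8 had a shared peak, again near the 69.7% of coding genes, and 4 had one of at least 5-fold, against 32.2%. At least 10-fold was reached by 0 of 10, against 10.3% of coding genes, so a count of 0 is close to the background. This changed with the window: within 5000 bp, LAC10 had a shared peak of 15.3-fold and 15.9-fold, 4505 and 4504 bp past its higher-coordinate end and 730.5 bp from another coding gene. The count was then 1 of 10, against 3 of 8 for the targets and 14.9% of coding genes. The highest within 3000 bp were LAC11, which acts with LAC4 and LAC17 in lignification, at 8.37-fold (6.94 to 10.0) and 8.39-fold (6.91 to 10.1), LAC15 (listed as TT10), a seed coat laccase of flavonoid oxidation, at 7.09-fold (5.78 to 8.62) and 7.41-fold (6.02 to 9.01), and LAC5 at 5.82-fold (4.64 to 7.21) and 6.43-fold (5.14 to 7.93). The LAC11 and LAC15 summits lay inside another coding gene, and the LAC5 summit inside LAC5. The intervals of LAC11 lay below those of ARPN and overlapped those of LAC17. The difference between the laccases targeted by copper microRNAs and the others was not tested.

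The copper microRNA genes were described alongside, although those of miR398 do not target any of these 8 genes. Of the 7 copper microRNA genes 6 had a shared peak, against 63.2% of microRNA genes, and all 6 reached 10-fold, against 10.4%. The highest were MIR398B at 21.8-fold and 22.6-fold and MIR398C at 19.8-fold and 19.6-fold. Among the genes of the 3 microRNAs that target the laccases and plantacyanin, MIR408 had 18.5-fold and 18.6-fold and MIR397A had 12.5-fold and 11.8-fold. MIR397B and MIR857 are neighbours and shared 1 peak of 16.8-fold and 18.2-fold. Its summit lay 126.5 bp from MIR397B and 325.5 bp from MIR857, so it cannot be assigned to MIR857 by position alone. LAC7 had no shared peak, and this was the only shared peak near the gene of its microRNA. The MIR397A summit lay inside the coding gene ENT6. The MIR408 summit was nearer to AT2G47010 (101.5 bp) than to MIR408 (315.5 bp), and the MIR398B summit nearer to AT5G14550 (204.5 against 220.5 bp). These peaks cannot be assigned to the microRNA genes by position alone. The peaks of MIR397B, MIR857 and MIR398C were nearer to the microRNA gene than to a coding gene. SPL7 itself had 6.29-fold and 5.86-fold, 945 and 926 bp past its higher-coordinate end, and 25.1% of coding genes had a peak at least as strong. These values were known when the genes were chosen.

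At the shared peaks of the 8 genes, the replicates could be compared by tags. Of the 13 peaks, 6 had the higher fold in replicate 1 and 7 in replicate 2. None differed in tag number beyond counting error, as 0 of 13 had an adjusted p under 0.05 (exact binomial test per peak, two-sided, Benjamini-Hochberg over 16697 shared peaks, adjusted p = 1 at each), and 0 of 13 had an unadjusted p under 0.05. Over all shared peaks 1 of 16697 passed. Their tag split varied only 0.649 times as much as the binomial value, so this test was unlikely to call any peak different. The lowest unadjusted value, an exact p of 0.0730, was that of the nearer LAC3 peak. Among the 7 peaks of at least 5-fold, the folds differed by at most 1.13 times and the summits by at most 25 bp. Tags were taken at each replicate's own summit, and peaks of 1 replicate alone were left out of this comparison.

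**Figure D4:**
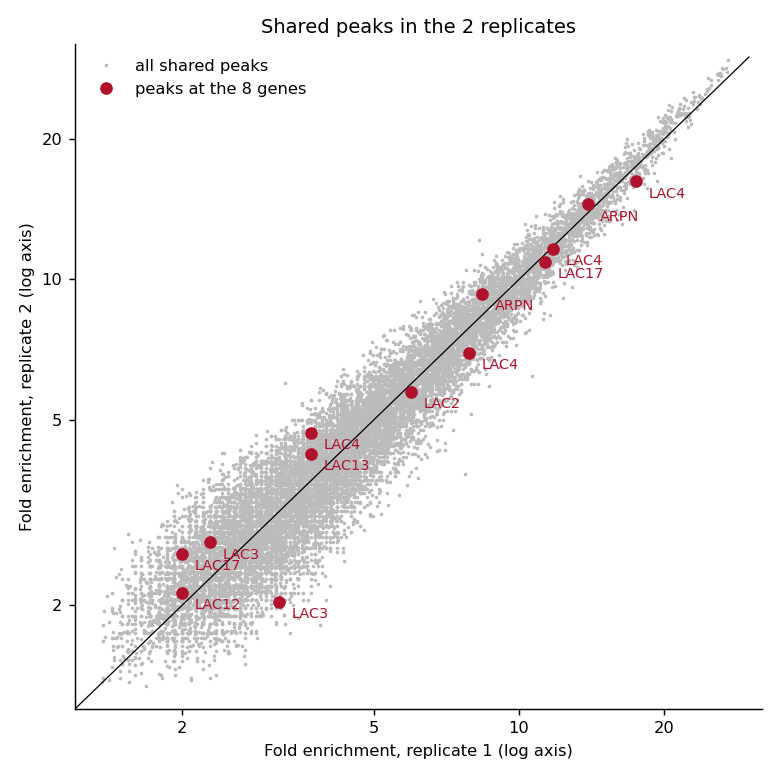
Fold enrichment in replicate 1 (x axis) against replicate 2 (y axis), both on log scales, for all 16697 shared peaks (grey) and the 13 at the 8 genes (red, named). The line marks equal values, and the red points lie along it within the grey cloud, farthest from it for the nearer LAC3 peak at 3.18 and 2.04.

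The fold of a peak also depends on the local background that the caller used. At 9 of the 13 shared peaks this stood at the genome-wide level in both replicates. It was raised in both at the nearer LAC3 peak (1.28 and 1.37 times the genome level), the ARPN peak inside SUT2 (1.18 times in each) and the LAC13 peak (1.13 and 1.18 times), and in replicate 2 alone at the strong LAC17 peak (1.08 times). At the LAC4 peaks and the strongest ARPN peak it was not raised.

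The limit of 3000 bp set how many peaks were counted: the shared peaks at the 8 genes numbered 13 with it, 6 with 1000 bp and 17 with 5000 bp. Just inside it were the outermost LAC4 peak and the ARPN peak in SUT2, given above. Outside it, up to 5000 bp, stood a pair of LAC2 peaks with summits inside the coding gene PUM3. They lay at 3084 and 3080 bp with 2.28-fold and 2.28-fold, and at 3557 and 3649 bp with 2.0-fold and 2.05-fold. An ARPN peak inside SUT2, at 3680 and 3920 bp, had 2.14-fold and 2.05-fold. Another ARPN peak, inside AT2G02840 at 4157 and 4178 bp, had 1.94-fold and 2.12-fold. When the limit was set to 5000 bp, none of the 7 genes changed its strongest peak, and LAC7 still had no shared peak (7 of 8 genes, against 83.1% of coding genes). With 2000 bp the count was also 7 of 8, against 59.9%. Replicate 1 alone had a peak at 8 of 8 genes (79.2% of coding genes) and replicate 2 at 7 of 8 (78.8%). Counting any overlap of at least 1 bp as shared gave 7 of 8 (71.5%), and requiring summits within 100 bp gave 6 of 8 (70%), with LAC12 lost.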

How the data were processed

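SPL10 DAP-seq peaks were analysed from 2 precipitated samples. Per the submitters' processing notes, cutadapt and the TAIR10 build were used, and the names of the peaks point to MACS as the caller. Its version, threshold and control are not stated. The deposited lists give per peak a fold enrichment (a ratio), −log10 p and −log10 q and a score, called per replicate by the authors. The lists were not limited to a q of 0.05, since 10.8% and 7.99% of peaks lay above it. The input alignment log was not used.

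Tag numbers were recovered from fold and −log10 p (tolerance 0.002, 100% matched in each replicate, recovery tested on simulated lists). This put the replicates at 1.26 and 1.18 times the depth of the background library, with a median of 47 and 45 tags per summit. The recovered genome-wide background was 10.2 tags in both, so the folds of both replicates may rest on the same background library. The variance of the tag split at shared peaks was 0.649 times the binomial value. Peaks sharing at least 50% reciprocal overlap were called shared and placed at the mean of their summits. Genes came from a RefSeq table of TAIR10.1, used for distances, with all 26 listed genes matched by locus. It has no strand, and no sequence was given, so motif counts were not run, and no sequences are shown. Python 3.11.15 and scipy 1.17.1 were used.

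The 8 genes and the gene lists were chosen with earlier results of these data known. All peaks of the 8 genes are named, with at most 3 genes per other list, those of highest mean fold, and SPL7. MIR397A, MIR397B and MIR857, as genes of the targeting microRNAs, and LAC10, for its peak beyond 3000 bp, were named after their values were seen. Alternatives covered the overlap, the threshold, the window and each replicate alone.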

Additional observations from a re-analysis of the deposited data

How the results depend on the processing

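No paired analysis was possible because the single precipitated group has no second group to be paired with. With the 5000 peaks of highest fold per replicate, 4 of the 8 genes and 4 of 10 other laccases had a shared peak, against 26.1% of coding genes. The shared peaks at the 8 genes numbered 7. LAC3, LAC12 and LAC13 were the genes lost. With a window of 1000 bp, 4 of 10 other laccases had a shared peak, against 45.9% of coding genes, and the peaks at the 8 genes numbered 6. LAC17 and ARPN were lost, whose strong peaks lie farther off, so they have no value there. With 5000 bp, 1 other laccase, LAC10, had a peak of at least 10-fold, against 0 with 3000 bp. The share of coding genes was 14.9% with 5000 bp and 10.3% with 3000 bp. With summits within 100 bp in place of overlap, LAC12 was lost and 6 of the 8 genes were left, against 70% of coding genes. Using 1 replicate alone, 7 to 8 of the 8 genes had a peak and the peaks numbered 15 in each, where LAC7 was gained from replicate 1 only. Likewise 8 to 9 of 10 other laccases had one, and of all coding genes 79.2% in replicate 1 and 78.8% in replicate 2. Of the 7 copper microRNA genes 6 to 7 had one, and the share of all microRNA genes was not computed for 1 replicate alone. At the shared peak of highest mean fold, the replicate values were 16.2 to 17.5 for LAC4, 13.9 to 14.5 for ARPN and 10.9 to 11.3 for LAC17. They were 5.75 to 5.96 for LAC2, 3.70 to 4.23 for LAC13, 2.04 to 3.18 for LAC3 and 2.0 to 2.13 for LAC12. In replicate 2 the farther LAC3 peak was the higher of the pair, at 2.73-fold. The remaining settings kept each count within 1.5 times its value. The planned GTAC counts were not run, for want of sequence. Folds over 198 tags may be compressed, since no summit exceeded 396 tags in either list, but this was not tested.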

Other observations

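Of the 17 laccase genes, LAC2, LAC5, LAC6 and LAC12 had a shared summit inside the gene, against 26.6% of coding genes, so this is no more than the background. The summit lay 757 bp from the higher-coordinate end in LAC2, 744 bp in LAC5, 911.5 bp in LAC6 and 830 bp in LAC12. The folds in LAC2 (5.96 and 5.75) and LAC5 (5.82 and 6.43) had overlapping intervals, while LAC6 had 3.74-fold and 4.05-fold and LAC12 2.0-fold and 2.13-fold. The LAC6 summit also lay inside the noncoding gene AT2G46572. Peaks of 1 replicate alone lay inside LAC2, LAC7, LAC10 and LAC16 at other distances from that end, 1574, 1734, 2246 and 2681 bp. The distances of the shared summits were noticed after the values were seen and were not tested, and whether these genes lie on the same strand was not used here.

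LAC1, another laccase of the Casparian strip, had no shared peak, although replicate 1 listed a pair of 1.93-fold and 2.49-fold, and LAC14 had no peak in either list. With LAC7, this makes 3 laccases of 17 without a shared peak within 3000 bp, where 69.7% of coding genes had one.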
